A study of Rattus norvegicus with 12 samples.

Results

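App, Mapt and Gsk3b, 3 genes whose products are central to the study of Alzheimer's disease, were followed through every library of a rat neuron experiment that compared total RNA with RNA bound to ribosomes. They were picked by their Ensembl rat identifiers, ENSRNOG00000006997 for App, ENSRNOG00000005133 for Mapt and ENSRNOG00000002833 for Gsk3b. The rule that picked them used no measured value, but earlier results of these data were known when genes, lists and tests were chosen. They make up 3 of the 25424 genes read from the deposited table, and all 3 passed the filter on low values that left 12150 genes to test.

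App encodes the amyloid precursor protein, a membrane protein that β-secretase and γ-secretase cut to release the Aβ peptide. Mapt encodes tau, a protein that binds microtubules in axons and collects in neurofibrillary tangles when it is heavily phosphorylated. Gsk3b encodes glycogen synthase kinase 3β, a serine/threonine kinase of the insulin and Wnt pathways that phosphorylates tau. The 3 genes thus stand for the source of Aβ, for tau and for a kinase that acts on tau.

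All libraries came from primary cortical neurons of embryonic Sprague-Dawley rats, cultured for 27 days in vitro and then exposed for 24 h to vehicle (HEPES buffer) or to 100 nM synthetic rat Aβ that contained oligomers. The culture methods state that d,l-amino-phosphonovalerate was added to the medium early on, to keep neurons healthy and limit excitotoxic death. Cycloheximide, which stalls ribosomes on their mRNAs, was present in all 4 groups for the last minutes before lysis. Cytosolic lysate was either kept as total RNA or spun through a sucrose cushion to pellet ribosomes with their mRNAs. A cushion brings down single ribosomes together with polysomes, so the pellet does not weigh how many ribosomes an mRNA carried. Each of the 4 groups (vehicle total, Aβ total, vehicle ribosome and Aβ ribosome) had 3 libraries of polyadenylated RNA, numbered here as in the sample titles. The study speaks of biological replicates and of paired sequencing of the fractions, but the sources used here do not say which libraries came from the same culture. The fits given here treat the libraries as unpaired. The methods report a more efficient bead capture for 3 samples with little RNA without naming them. The neuronal identity of the cultures was not checked, because the identifiers of marker genes could not be paired with symbols.

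Expression was deposited as FPKM, the fragments of a gene per kilobase of transcript, normalised to the mapped fragments of the library. Levels of different genes can then be compared per length, as far as the lengths used are right. Those behind the values were 3051 bases for App, 1770 for Mapt and 1525 for Gsk3b, and they were not checked against full transcripts. Each library was divided by its size factor (median of ratios), and the result is called the scaled FPKM. Depth was 14.1 M to 20.04 M mapped fragments for the 6 ribosome libraries, and 16.3 M to 18.8 M for the 6 total ones. The 20 genes with most fragments held 13.5 to 20.6% of mapped fragments in the ribosome libraries against 6.24 to 6.84% in the total libraries. Size factors of ribosome libraries were 0.827 to 0.982 and those of total libraries 1.07 to 1.16, so the scaling itself moved the fractions relative to each other. Values under other scalings are therefore given for the differences between fractions and wherever another scaling moved a difference between treatments by more than 1.5 times.

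In total RNA, App was the most abundant of the 3, followed by Mapt and Gsk3b. App had scaled FPKM of 483.7, 426.3 and 535.2 in the vehicle total libraries 4, 8 and 12, and of 466.5, 444.6 and 522.3 in the Aβ total libraries 3, 7 and 11. These rested on 27014 to 32406 fragments per library and placed App between percentiles 99.3 and 99.4 of the genes tested. Mapt had scaled FPKM of 131.0, 126.4 and 150.5 in vehicle total libraries and of 129.5, 121.3 and 144.3 in Aβ total libraries, from 4275 to 5193 fragments. Gsk3b had scaled FPKM of 53.4, 54.7 and 58.7 in vehicle total libraries and of 53.5, 54.7 and 63.4 in Aβ total libraries, from 1569 to 1965 fragments. The ranges of the 3 genes did not overlap in total RNA, and library 12 or 11 was the highest of its group for each gene.

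In ribosome-enriched RNA the same order held, with App further above the other two. App had scaled FPKM of 575.1, 579.2 and 437.3 in the vehicle ribosome libraries 2, 6 and 10, and of 596.8, 573.6 and 478.1 in the Aβ ribosome libraries 1, 5 and 9. These values overlapped with those of total RNA, with libraries 10 and 9 the lowest of their groups. Mapt had scaled FPKM of 32.9, 46.6 and 50.4 in vehicle ribosome libraries and of 58.3, 45.7 and 56.7 in Aβ ribosome libraries, from 726 to 1547 fragments. Gsk3b had scaled FPKM of 7.14, 15.4 and 24.6 in vehicle ribosome libraries and of 17.9, 14.3 and 23.4 in Aβ ribosome libraries, from 136 to 572 fragments. Every ribosome library lay below every total library for Mapt and for Gsk3b, an arrangement that 20.6% of all genes tested shared. App kept percentiles 98.6 to 99.2 of the genes tested in the pellet, whereas Mapt stood at 76.7 to 87.0 against 95.3 to 96.1 in total RNA, and Gsk3b at 41.9 to 72.2 against 87.0 to 88.5.

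**Figure D1:**
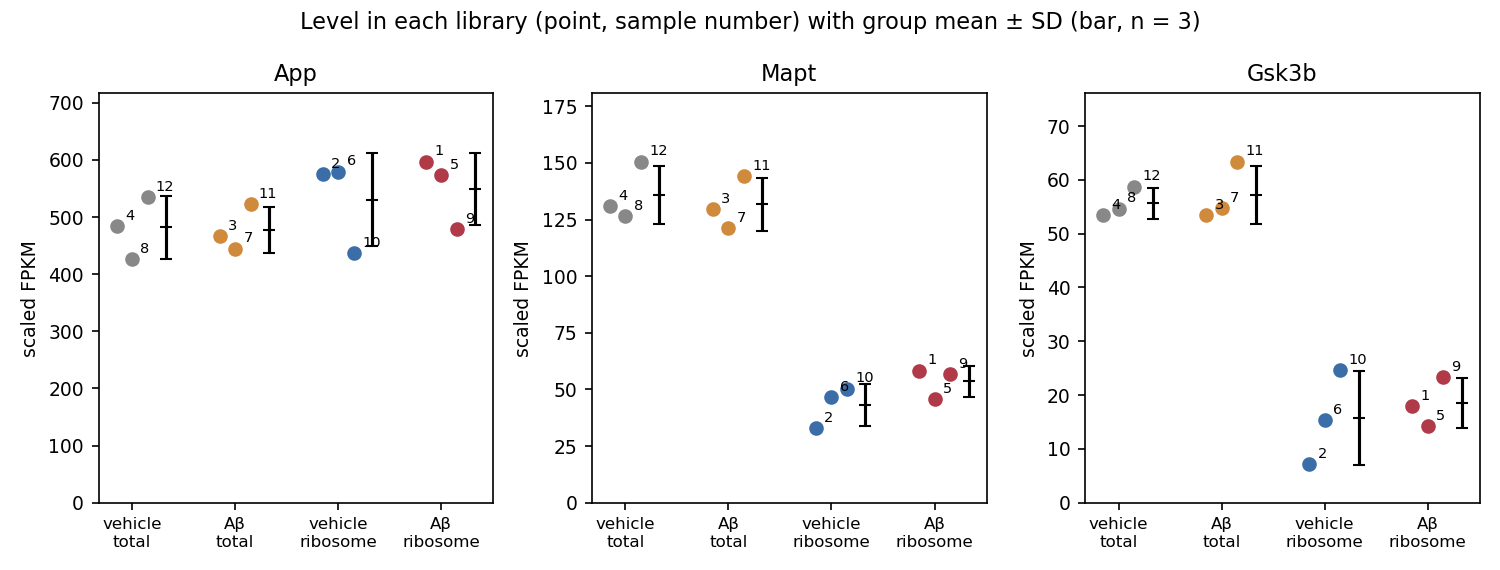
Scaled FPKM (linear axis from 0, a separate scale for each gene) of App, Mapt and Gsk3b in each of the 12 libraries, with points numbered by sample and bars giving the mean ± SD of 3 libraries. App overlaps between total and ribosome libraries, while all 6 ribosome libraries lie below all 6 total libraries for Mapt (at most 58.3 against at least 121.3) and Gsk3b (at most 24.6 against at least 53.4).

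The first comparison asked which mRNAs were over- or under-represented on ribosomes relative to the cytosol of vehicle-treated neurons. Mapt and Gsk3b were lower in the ribosome fraction and App did not pass the test. Mapt averaged 43.3 ± 9.24 scaled FPKM (SD, n = 3) in the ribosome libraries against 136.0 ± 12.8 in the total libraries. On the log2(scaled FPKM + 1) scale this was a difference of −1.65 (SE 0.18, 95% interval −2.08 to −1.22), 3.13-fold lower, with an adjusted p of 0.00259 by limma. In FPKM as deposited it was −1.99. Gsk3b averaged 15.7 ± 8.74 against 55.6 ± 2.79 scaled FPKM, a log2 difference of −1.91 (SE 0.37, interval −2.77 to −1.05), 3.75-fold lower, with an adjusted p of 0.00880, and −2.23 as deposited. The vehicle ribosome libraries spread from 7.14 to 24.6 for Gsk3b, and its interval was wider than that of Mapt. Without library 2, the lowest, or any other single library, Gsk3b still passed the test.

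Such calls were frequent in this comparison. Of the 12150 genes tested, 32.3% passed at an adjusted p under 0.05 in either direction and 16.4% were lower in the ribosome fraction. The log2 differences of Mapt and Gsk3b stood at percentiles 2.53 and 1.37 of all genes tested, so that few genes had a more negative one. With no filter on low values, all 25424 genes entered both the fit and the adjustment. The SE of Gsk3b was then 0.45 instead of 0.37 at the same difference, and its adjusted p by limma was 0.0763.

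App averaged 530.5 ± 80.8 scaled FPKM in the vehicle ribosome libraries and 481.7 ± 54.4 in the vehicle total libraries. The log2 difference was 0.13 (SE 0.18, adjusted p = 0.594 by limma), with an interval from −0.28 to 0.55 that leaves room for a level between 0.821 and 1.47 times that of total RNA. App stood at percentile 58.7 of the genes tested, near the middle of the distribution. In FPKM as deposited the sign turned to −0.21 (adjusted p = 0.250), and there the median of all genes was −0.30. Relative to that median, App stood at 0.09 in deposited and 0.13 in scaled values. With limma's library weights, which count libraries that fit the group means poorly for less, App passed the test at 0.26 (adjusted p = 0.0404). Most genes did so under these weights, with 8545 of the 12150 tested called, against 3925 without weights.

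The second comparison set the same fractions against each other after Aβ. Again Mapt and Gsk3b were lower in the ribosome fraction and App did not pass. Mapt averaged 53.6 ± 6.89 against 131.7 ± 11.7 scaled FPKM, a log2 difference of −1.29 (SE 0.13, interval −1.58 to −0.99), 2.44-fold lower, with an adjusted p of 0.00158 by limma, and −1.55 as deposited. Gsk3b averaged 18.5 ± 4.59 against 57.2 ± 5.40 scaled FPKM, a log2 difference of −1.60 (SE 0.17, interval −2.00 to −1.19), 3.03-fold lower, with an adjusted p of 0.00164, and −1.85 as deposited. In this comparison 41.1% of genes tested passed in either direction and 21.5% were lower in the ribosome fraction, while Mapt and Gsk3b stood at percentiles 3.36 and 1.42.

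App averaged 549.5 ± 62.9 scaled FPKM in the Aβ ribosome libraries and 477.8 ± 40.1 in the Aβ total libraries. The log2 difference was 0.20 (SE 0.14, interval −0.13 to 0.52, adjusted p = 0.288 by limma), at percentile 64.5 of the genes tested. In FPKM as deposited it was −0.07 (adjusted p = 0.719) against a median of all genes of −0.23, so that App stood 0.16 above the median there and 0.20 above it in scaled values. The sign of App between the fractions therefore depended on the scaling in both treatments. A scaling shifts all genes of a library nearly alike, so the place of App relative to the median could hardly change with it. Whether App differed from the median was not tested.

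**Figure D2:**
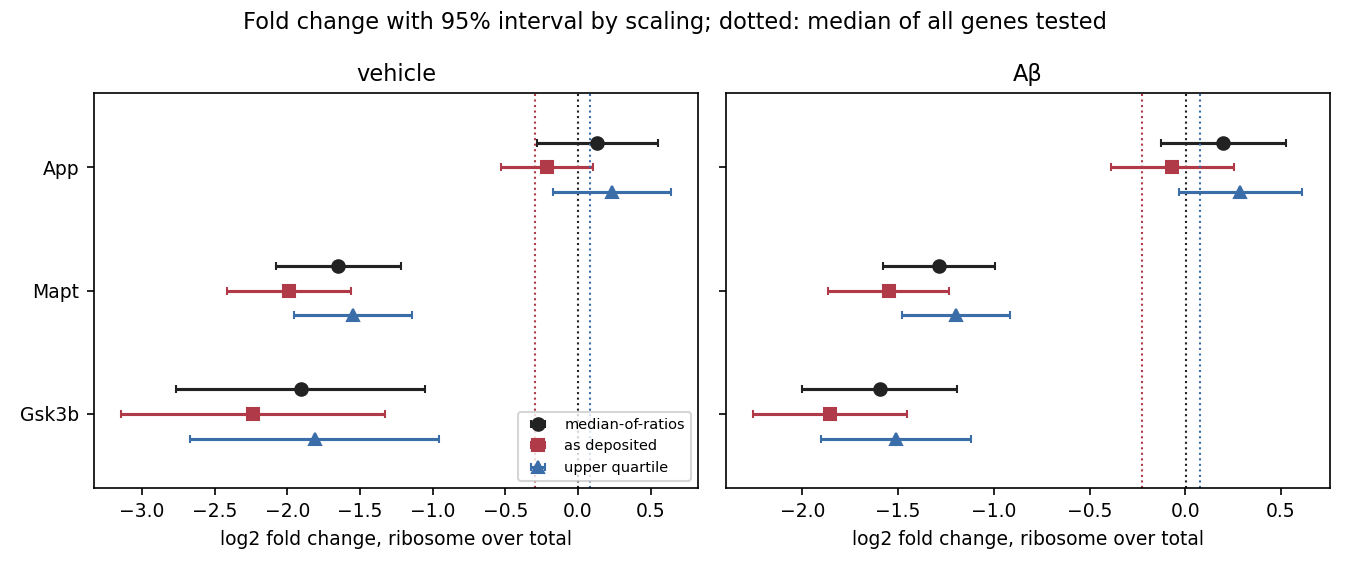
Log2 difference between ribosome and total libraries with its 95% interval for App, Mapt and Gsk3b in vehicle and in Aβ, under 3 scalings of the libraries. Mapt and Gsk3b lie below 0 under every scaling (−1.20 to −1.99 and −1.51 to −2.23), and App changes sign between deposited values (−0.21 and −0.07) and scaled values (0.13 and 0.20). With upper-quartile scaling App lies at 0.24 in vehicle and 0.29 in Aβ.

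**Figure D3:**
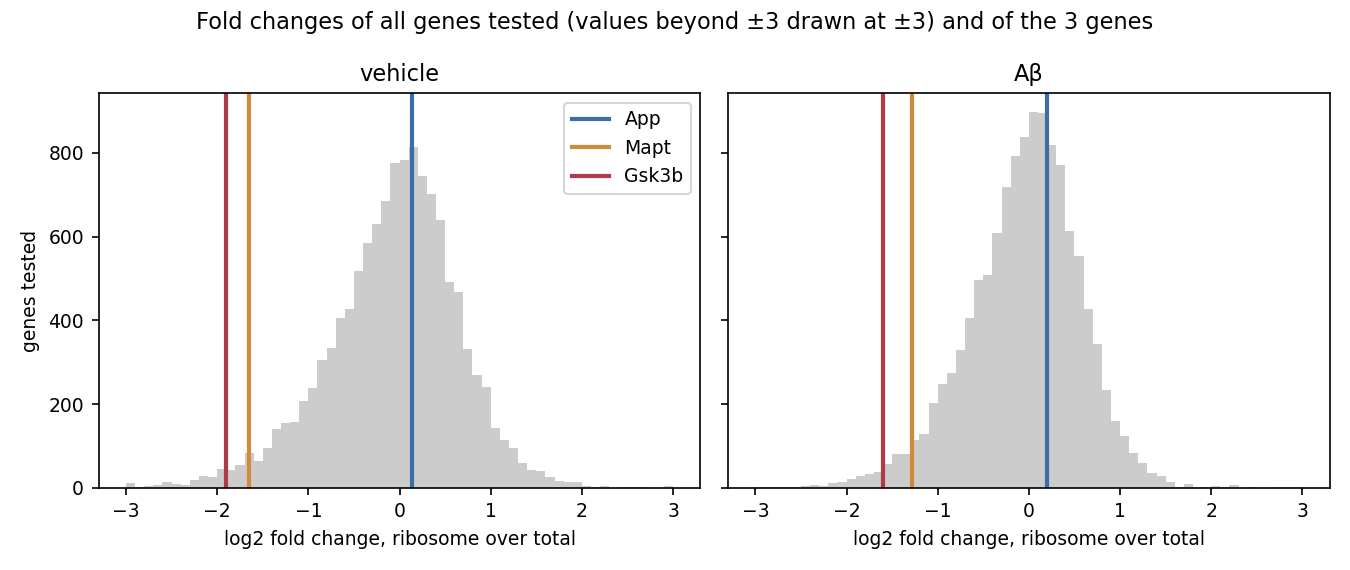
Distribution of the log2 difference between ribosome and total libraries over the 12150 genes tested, in vehicle and in Aβ, with the 3 genes marked. App lies near the middle (percentiles 58.7 and 64.5), and Mapt and Gsk3b lie in the lower tail (percentiles 1.37 to 3.36).

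Because the ratio of 2 genes within a library does not depend on the scaling between libraries, the 3 genes were also compared with each other. Per length, App exceeded Mapt by 3.37 to 3.69 times in the vehicle total libraries and by 3.60 to 3.67 times in the Aβ total libraries. In the ribosome libraries App exceeded Mapt by 8.67 to 17.5 times in vehicle and by 8.44 to 12.6 times in Aβ. The log2 ratio of Mapt to App differed between ribosome and total libraries by −1.65, averaged over both treatments (exact permutation test of 400 splits within treatment, two-sided p = 0.005, the smallest these splits allow, adjusted p = 0.015 over 6 tests).

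App exceeded Gsk3b by 7.80 to 9.11 times in the vehicle total libraries and by 8.13 to 8.73 times in the Aβ total libraries. In ribosome libraries the factor was 17.8 to 80.5 in vehicle and 20.4 to 40.2 in Aβ, with library 2 the highest. The log2 ratio of Gsk3b to App differed between the fractions by −1.99 (exact permutation p = 0.005, adjusted p = 0.015). Neither ratio overlapped between total and ribosome libraries. How many other genes have a ratio to App that separates in this way was not computed. In level alone, 20.6% of all genes tested had every ribosome library below every total library.

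Gsk3b and Mapt, a kinase and its substrate, were both lower on ribosomes, and their ratio was compared as well. Mapt exceeded Gsk3b by 2.31 to 2.56 times in vehicle total libraries and by 2.22 to 2.42 times in Aβ total libraries, against 2.05 to 4.60 and 2.42 to 3.26 times in the ribosome libraries of vehicle and Aβ. The log2 ratio of Gsk3b to Mapt differed between the fractions by −0.34 (exact permutation p = 0.075, adjusted p = 0.15) and did not pass the test. Mapt exceeded Gsk3b by 2.05 times in vehicle ribosome library 10 and by 2.42 times in Aβ ribosome library 9, no more than in some total libraries. Without library 10 the difference was −0.48 (adjusted exact permutation p = 0.01). Without vehicle ribosome library 2 it was −0.19 (adjusted exact permutation p = 0.3). Leaving out any other single library did not bring the adjusted p under 0.05.

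**Figure D4:**
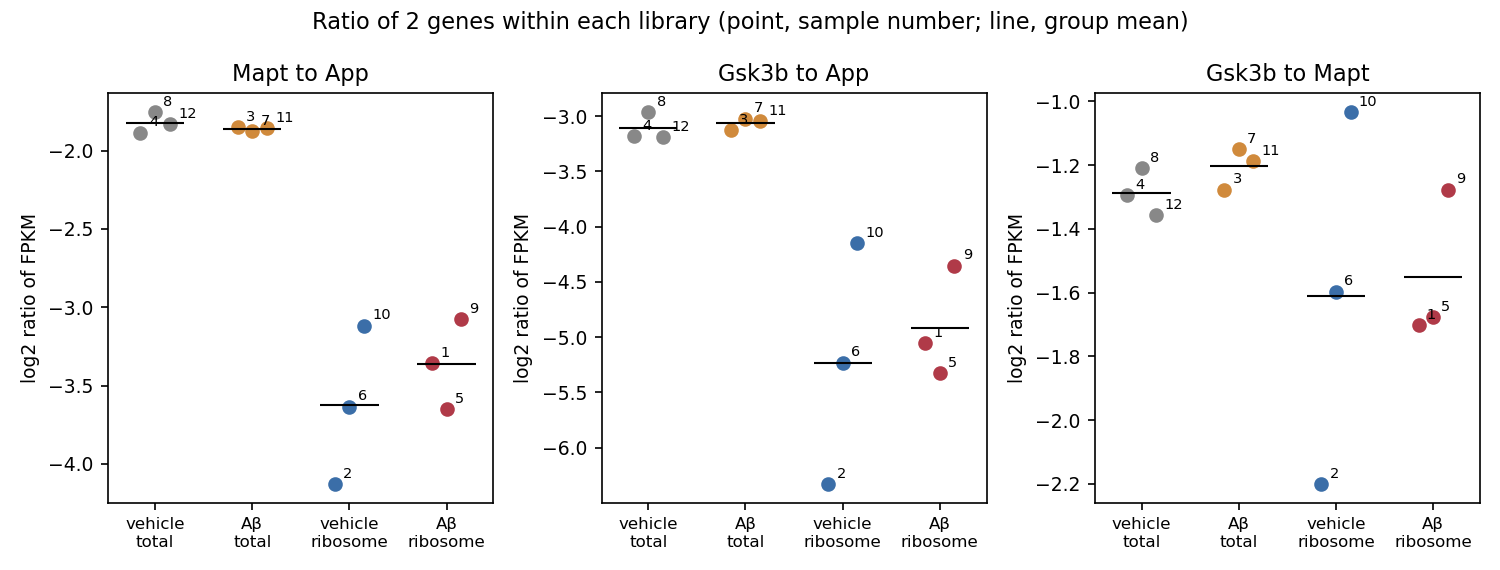
Within-library ratios of the scaled FPKM of 2 genes in each of the 12 libraries, on a log2 axis, with 1 panel for each pair of genes, points numbered by sample and lines at the group means. Mapt to App and Gsk3b to App do not overlap between ribosome and total libraries (mean log2 differences −1.65 and −1.99), and Gsk3b to Mapt does (−0.34). The share of other genes whose ratio to App separates likewise was not computed.

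The third comparison asked whether Aβ moved the 3 genes. In total RNA none of them passed the test, and the differences between Aβ and vehicle were small. The log2 difference was −0.01 for App (SE 0.15, interval −0.35 to 0.33), −0.05 for Mapt (interval −0.40 to 0.31) and 0.04 for Gsk3b (interval −0.66 to 0.73), each with an adjusted p of 1 by limma. In RNA from whole cultures, a change in the number of cells that express a gene and a change in the RNA of each cell cannot be told apart. As deposited, App was at −0.02, and with upper-quartile scaling at −0.01. Across all genes 0% passed in total RNA, with 20 of 12150 at an unadjusted p under 0.05. The fit gave each gene 1 variance over all 12 libraries, so the spread of ribosome libraries helped set these intervals and counts. Gsk3b had an SE of 0.32 in either fraction. Its log2 SD was 0.07 (vehicle) and 0.13 (Aβ) for total RNA, against 0.83 and 0.34 for ribosome-enriched RNA. Without vehicle ribosome library 2 the SE of Gsk3b in total RNA fell to 0.19. Total libraries were not fitted alone, so their own precision was not tested.

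In ribosome-enriched RNA the difference between Aβ and vehicle was 0.06 for App (SE 0.15, interval −0.28 to 0.39), 0.32 for Mapt (SE 0.16, interval −0.04 to 0.67) and 0.35 for Gsk3b (SE 0.32, interval −0.35 to 1.05). None passed, with adjusted p of 1 by limma, and across all genes 0% passed while 178 of 12150 had an unadjusted p under 0.05. Here and in total RNA this share was below the 0.05 that p-values give on average where nothing differs. Why it was so low was not tested. Libraries of the groups overlapped for each gene. Single vehicle ribosome libraries moved these values both ways. Without library 2, the lowest of all for both genes, Mapt was at 0.13 and Gsk3b at −0.10. Without library 10 they were at 0.43 and 0.73, and App at −0.08. As deposited, App was at 0.12.

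The interaction of treatment and fraction tested whether the shift between total and ribosome-enriched RNA itself differed after Aβ. It was 0.06 for App (SE 0.22, interval −0.41 to 0.54), 0.36 for Mapt (SE 0.23, interval −0.14 to 0.86) and 0.31 for Gsk3b (SE 0.45, interval −0.68 to 1.30). The adjusted p was 1 by limma for each, 0% of all genes passed, and 84 genes had an unadjusted p under 0.05, again a share below 0.05. With voom weights on recovered fragments no gene passed any of these 3 comparisons either. The intervals allow shifts of up to 1.82-fold for Mapt and 2.46-fold for Gsk3b, so the libraries could not exclude changes of that size. Without vehicle ribosome library 2 the interaction was 0.18 for Mapt and −0.13 for Gsk3b, and without library 10 it was 0.48 and 0.69. For App it was 0.13 without library 2, −0.07 without library 10, and 0.14 as deposited.

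The within-library ratios gave the same outcome for treatment, with differences between Aβ and vehicle of 0.11 for Mapt to App, 0.19 for Gsk3b to App and 0.07 for Gsk3b to Mapt (exact permutation p = 0.585, 0.63 and 0.74, all adjusted to 0.74). Without vehicle ribosome library 2 they were −0.01, −0.09 and −0.08, and without library 10 they were 0.24, 0.46 and 0.21.

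The spread between replicates differed by gene and by fraction. Gsk3b had an SD of 0.83 on the log2(scaled FPKM + 1) scale among the vehicle ribosome libraries, above 95.1% of genes tested, against a median of 0.30. In the Aβ ribosome libraries its SD was 0.34 against a median of 0.21, and in the vehicle total libraries it was 0.07 against a median of 0.12. The coefficient of variation of Gsk3b in the vehicle ribosome libraries was 55.6%, while counting error alone gave at most 8.57% for the library with 136 fragments. Mapt had an SD of 0.32 and App of 0.23 in the vehicle ribosome libraries, at percentiles 54.2 and 35.0.

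The 6 ribosome libraries were not equally unlike total RNA. Over all genes read other than these 3, on the log2(FPKM + 1) scale, their mean Pearson's r with the 6 total libraries was 0.950 in vehicle library 2, 0.965 in Aβ library 5, 0.966 in vehicle library 6, 0.974 in Aβ library 1 and 0.978 in Aβ library 9 and vehicle library 10. Gsk3b followed this order in all 6 libraries, from 7.14 scaled FPKM in library 2 to 24.6 in library 10. Some steps of the order were small, with r of 0.978 and 0.9783 in libraries 9 and 10, and of 0.9649 and 0.9657 in libraries 5 and 6. How many other genes followed the same order was not counted. App was lowest in libraries 10 and 9, the closest to total RNA, and Mapt was lowest in library 2, the farthest. The part of this unequal likeness in the spread of the 3 genes was not tested.

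**Figure D5:**
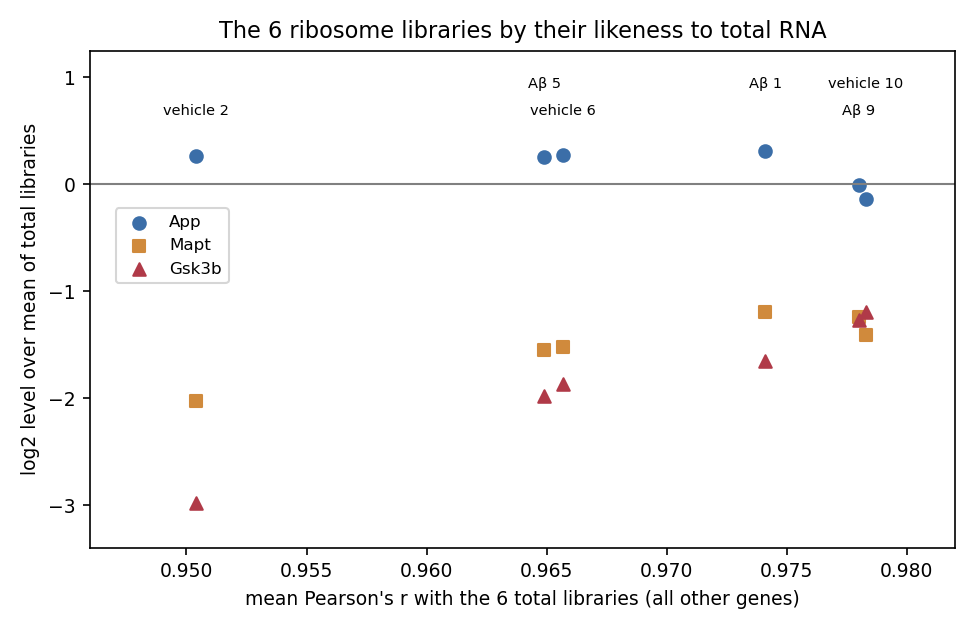
Level of App, Mapt and Gsk3b in each of the 6 ribosome libraries, as the log2 ratio to their mean over the 6 total libraries, against the mean Pearson's r of that library with the total libraries over all other genes read. Gsk3b climbs from −2.98 in vehicle library 2 to −1.20 in vehicle library 10 in the order of r, and App is lowest in the 2 libraries at the right.

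Over all 12 libraries, Gsk3b and Mapt moved together with a Pearson's r of 0.974, and 3.37% of the other genes tested were closer to Gsk3b than Mapt was. App went the other way, with r of −0.49 to Mapt and −0.62 to Gsk3b. Within the 6 total libraries all 3 pairs had positive r, from 0.708 to 0.931. Within the 6 ribosome libraries Gsk3b and Mapt had an r of 0.896, App and Gsk3b of −0.659, and App and Mapt of −0.304. The points of each r share library, depth and scaling, and r over 12 libraries also holds the difference between the fractions.

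The gene closest to App over the 12 libraries was ENSRNOG00000006037, with an r of 0.945 and means of 589.3 scaled FPKM in ribosome and 458.7 in total libraries. The closest to Mapt was ENSRNOG00000020021, with an r of 0.998 and means of 17.9 and 48.3. The closest to Gsk3b was ENSRNOG00000025594, with an r of 0.998 and means of 8.05 and 21.3. Their symbols are not paired with identifiers in the tables used, and they were picked by likeness after the values were seen.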

How the data were processed

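The authors trimmed paired-end reads, aligned them with TopHat2 2.0.12 on Bowtie2 2.2.3, assigned fragments to genes by the union rule of HTSeq 0.6.1 and deposited 1 column of FPKM per library, neither pooled nor scaled further. The authors tested counts with DESeq, and those counts were not used here. Genome build, annotation version and strand setting are not given in the sources used here. Of 25425 rows, 1 incomplete row was left out.

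From the deposited FPKM, whole fragments (within 0.003) were recovered for 12149 of the 12150 genes whose FPKM averaged 1 or more, with mapped fragments per library. Each library was scaled by its median-of-ratios size factor. The test was limma 3.58.1 (R 4.3.3) on log2(scaled FPKM + 1) (eBayes with trend, two-sided, Benjamini-Hochberg over all genes tested, threshold 0.05). A pseudocount of 1 understates changes of low genes. Fractions were compared within each treatment, as in the study, here in a separate unpaired fit of 6 libraries each. Treatments and the interaction came from 1 fit of 12 libraries, with 1 variance per gene shared by both fractions. Within-library log2 ratios were tested by exact permutation over 400 stratified splits. Likeness between genes is Pearson's r of log2(scaled FPKM + 1) over 12 libraries. The code was tested on simulated data whose spread was set and not taken from these libraries. That checks the code and not how the tests perform on these libraries. Counting error covers counting only.

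Python 3.11.15 with numpy 2.4.6, pandas 2.3.3, scipy 1.17.1 and matplotlib 3.10.9 was used for the rest. The named genes were set as the 3 genes, with lists of APP processing, tau kinases, microtubule proteins and other groups wherever a table paired identifiers with symbols. The RefSeq gene table of assembly GRCr8 held 0 Ensembl identifiers, so these lists and the cell type markers were not analysed here. The genes, lists and tests were chosen with earlier results of these data known.

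Alternatives were FPKM as deposited, upper-quartile scaling, a pseudocount of 0.1, no filter, a minimum of 5, each library left out, 1 fit for all groups, no trend, library weights, voom weights on recovered fragments and runs of 4 sample numbers as a block. For ratios they were 1 FPKM added, each library left out and each stratum alone.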

Additional observations from a re-analysis of the deposited data

How the results depend on the processing

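Mapt was lower in the ribosome fraction and past the threshold under every alternative run in both treatments, and Gsk3b under every one in Aβ. The exception for Gsk3b in vehicle was no filter (−1.91, adjusted p = 0.0763 by limma). App changed sign as deposited (−0.210 in vehicle, −0.0675 in Aβ) and passed in vehicle with library weights (0.257, adjusted p = 0.0404). Library weights also turned App for the interaction (−0.00981) and for Aβ against vehicle on ribosomes (−0.0343). Genes called between the fractions in vehicle were 1987 with no filter and 8545 with library weights, against 3925. In Aβ they were 2940 with no filter, against 4993. No filter gave 4 genes for the interaction and 4 for Aβ against vehicle in total RNA, against 0 for each.

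With each library left out, the difference between fractions in vehicle was 0.0484 to 0.267 for App, −1.77 to −1.47 for Mapt (adjusted p up to 0.0207) and −2.29 to −1.46 for Gsk3b (up to 0.0386). In Aβ it was 0.135 to 0.295, −1.35 to −1.18 and −1.77 to −1.43 (up to 0.0139 for Mapt and Gsk3b). The interaction was −0.0685 to 0.162 for App, 0.178 to 0.480 for Mapt and −0.134 to 0.693 for Gsk3b. Aβ against vehicle was −0.0773 to 0.153, 0.133 to 0.434 and −0.0974 to 0.729 on ribosomes, and −0.0937 to 0.0700, −0.113 to 0.0293 and −0.0385 to 0.0822 in total RNA. Without vehicle ribosome library 2 Gsk3b changed sign in the interaction and on ribosomes, as did App without library 10. App also changed sign in the interaction without vehicle total library 12 (−0.0140) and on ribosomes without Aβ ribosome library 1 (−0.00671). In total RNA the sign changed for App without library 12, 3 or 7, for Mapt without library 12 or 7, and for Gsk3b without library 11. Genes called in vehicle were 1712, 1847 and 1867 without total library 4, 8 or 12, 2562 without ribosome library 6, and at most 5253. In Aβ they were 3025, 3140 and 3189 without total library 3, 7 or 11, and at most 5816. They numbered 0 to 1 for the interaction (1 without vehicle total library 8), 0 on ribosomes and 0 to 1 in total RNA (again without library 8).

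The ratio differences between fractions were −1.78 to −1.53 for Mapt to App, −2.26 to −1.72 for Gsk3b to App (adjusted exact permutation p up to 0.03 for both) and −0.480 to −0.188 for Gsk3b to Mapt. Between treatments they were −0.0111 to 0.242, −0.0882 to 0.457 and −0.0771 to 0.215. Within vehicle or Aβ alone, Mapt to App was −1.80 and −1.50, and Gsk3b to App −2.13 and −1.85, each with an exact permutation p of 0.1, the smallest 20 splits allow. Between treatments within total RNA, Mapt to App was −0.0371.

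A replicate block made of runs (samples 1 to 4, 5 to 8 and 9 to 12) assumes that a run is 1 culture, which the sources used here do not say. The study describes the fractions as sequenced in pairs without naming the pairs. With this block the adjusted p between fractions was 0.00174 for Mapt and 0.00275 for Gsk3b in vehicle, 0.00303 for both in Aβ, and 0.739 and 0.431 for App. It changed no call of the 3 genes, and 3356 genes were called in vehicle and 4293 in Aβ. For Aβ against vehicle, runs were also blocked within each fraction. On ribosomes the SE was then 0.0884 for App, 0.148 for Mapt and 0.236 for Gsk3b, against 0.155, 0.162 and 0.319 without a block. The adjusted p by limma was 0.811, 0.695 and 0.695. For the interaction the SE was 0.125, 0.209 and 0.334, with adjusted p of 0.926, 0.916 and 0.916. No gene passed either comparison. Apart from changes built into an alternative, such as fewer libraries or more genes tested, the cause of these changes was not tested. Gsk3b had the fewest fragments of the 3 genes, 136 in its lowest library.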
